A study of Mus musculus with 4 samples.

Results

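The 50 genes described here are cell cycle genes chosen by name, and not by their measured values, from the 27998 genes of the deposited tables. They are 23 genes active in S phase, 22 genes of G2 and mitosis (G2/M) and 5 regulators of G1. Their levels were followed in 4 single-cell RNA-seq libraries of mouse embryos, 1 library per stage. The stages, as embryonic days, were E8.0 and E8.25, then E9.5, and last E10.5, and values are given in that order. All libraries carried the alleles Mesp1Cre;Rosa26-GFPflox/+ in the Swiss Webster strain, so that Cre made in early Mesp1-expressing mesoderm left GFP in the descendants of those cells. Living (DAPI negative) GFP positive cells were sorted from pooled embryos, from the upper part of the body for both early libraries, and for both late ones from the heart together with the pharyngeal apparatus. Stage and library therefore changed together and cannot be told apart, and no test between stages was possible. The dissected region also changed between the early and the late libraries, and there it cannot be told apart from stage either.

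A dividing cell copies its DNA in S phase and separates the copies in mitosis, and each phase draws on its own set of transcripts. Many S genes are switched on by E2F transcription factors once D-type cyclins and their kinases release the block held by RB proteins, and many G2/M genes are switched on later by B-MYB and FOXM1. CDK inhibitors such as p21 and p27 hold the cycle back, and embryonic cardiomyocytes are known to divide while they already contract.

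The cells used numbered 7117, 2884, 3898 and 7523 at the 4 stages in order, with a median of 15208 to 35216 UMIs (distinct captured molecules) per cell, and any pair of libraries shared 16 to 88 cell barcodes. Each cell was thinned to 5000 UMIs and placed in a compartment by marker genes, none of which is among the 50. Sarcomere cells (cells with contractile genes) numbered 270, 41, 409 and 214, endothelial cells 393, 161, 204 and 384, blood (erythroid) cells 145, 316, 6 and 1024 and muscle progenitor cells 141, 59, 562 and 776. The 6168, 2307, 2702 and 5037 cells that passed no gate are called other cells and are a mixture, in which 3 markers of paraxial mesoderm summed to 36.3 to 279 CPM (UMIs of the genes per 1000000 UMIs of the compartment, the unit of every level here). Blood at E9.5 was left out because fewer than 20 cells passed. The 9 sarcomere markers summed to 20423 to 38875 CPM in sarcomere cells against 164 to 523 in other cells, the 10 endothelial markers to 2197 to 3537 in endothelial cells against 101 to 177, and the 6 muscle progenitor markers to 292 to 598 in muscle progenitor cells against 61.6 to 134, the narrowest of these margins. The 4 posterior second heart field markers, Tbx5 among them, summed to 280.3 to 424 CPM in sarcomere cells against 85.8 to 345 in other cells. The authors also use Tbx5 as a first heart field gene in cardiomyocytes, so these sums alone do not identify posterior cells. In muscle progenitor cells the 4 summed to 66.0 to 306 CPM. The 3 caudal mesoderm markers summed there to 121, 34.5, 1.11 and 0.957, against 152, 19.3, 1.97 and 1.40 in other cells. The part of these markers in the results was not tested.

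A few promoter stretches are shown for the motif letters that S and G2/M promoters hold. RefSeq promoter windows (GRCm38.p6) were matched by symbol for 42 of the 50 genes, 20 S genes, 19 G2/M genes and 3 G1 regulators, and the 250 bases before the start site were searched on both strands. An E2F-like motif (TTTGGCGC, TTTCGCGC, TTTCCCGC or TTTGCCGC) was found in 7 of the 20 S genes (35.0%), in 1 of the 19 G2/M genes and in 2.16% of all 27025 genes with a window. The cell cycle homology region, or CHR (TTTGAA or TTCGAA), was found in 9 of the 19 G2/M genes (47.4%), in 3 of the 20 S genes and in 19.6% of all genes. The CCAAT box was found in 16 of the 19 G2/M genes (84.2%), in 10 of the 20 S genes and in 37.5% of all genes. CHR and CCAAT letters stood together in 9 of the 19 G2/M genes, in 2 of the 20 S genes and in 7.93% of all genes. A match is a description of letters and not a bound site.

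In the first 4 stretches the capitals mark E2F-like letters on either strand, which overlap in Mcm6 and Mcm5, and in the others they mark CHR and CCAAT letters and, in Cdk1, also its E2F-like match. Mcm6 and Mcm5 (helicase subunits), Hells (a chromatin remodeller) and Cdc6 (origin licensing) stand for the S genes. Cdk1 (the kinase that drives mitosis), Cdc20 and Ube2c (an activator and an enzyme of the anaphase-promoting complex), Mki67 (the Ki-67 protein that coats mitotic chromosomes) and Kif11 (a spindle motor) stand for the G2/M genes.
Mcm6, chr1:128359733-128359827, minus strand: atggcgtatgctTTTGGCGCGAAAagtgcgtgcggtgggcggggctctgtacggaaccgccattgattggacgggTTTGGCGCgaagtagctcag
Mcm5, chr8:75109344-75109379, plus strand: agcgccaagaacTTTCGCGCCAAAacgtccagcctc
Hells, chr19:38930916-38930947, plus strand: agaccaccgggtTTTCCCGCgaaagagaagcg
Cdc6, chr11:98908001-98908032, plus strand: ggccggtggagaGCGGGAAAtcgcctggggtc
Cdk1, chr10:69352913-69353055, minus strand: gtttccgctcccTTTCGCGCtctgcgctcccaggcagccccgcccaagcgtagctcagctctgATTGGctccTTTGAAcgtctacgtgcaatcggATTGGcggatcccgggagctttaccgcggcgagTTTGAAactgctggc
Cdc20, chr4:118437344-118437408, minus strand: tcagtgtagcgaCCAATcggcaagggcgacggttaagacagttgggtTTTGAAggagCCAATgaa
Ube2c, chr2:164769829-164769917, plus strand: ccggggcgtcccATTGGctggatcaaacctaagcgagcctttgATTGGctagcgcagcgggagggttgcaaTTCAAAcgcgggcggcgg
Mki67, chr7:135716460-135716532, minus strand: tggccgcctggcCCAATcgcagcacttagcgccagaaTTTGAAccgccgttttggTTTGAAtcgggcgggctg
Kif11, chr19:37376325-37376380, plus strand: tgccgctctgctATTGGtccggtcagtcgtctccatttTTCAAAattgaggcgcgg

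Summed S and G2/M levels were lower in sarcomere cells than in every other compartment compared at each stage, and lower at each later stage. In what follows, intervals of levels are 95% Poisson intervals and intervals of ratios are 95% binomial intervals. Both cover counting error only. In a summed level, fewer cycling cells and fewer transcripts per cycling cell cannot be told apart. The S genes of sarcomere cells summed to 2356 (2313 to 2399), 2183 (2106 to 2262), 1694 (1663 to 1724) and 1039.7 (1006 to 1074). Their G2/M genes summed to 2416 (2373 to 2459), 2205 (2128 to 2285), 2075 (2042 to 2109) and 938 (906 to 970.3). In other cells the S genes summed to 3595, 3783, 3506 and 2827 and the G2/M genes to 2981, 2627, 3366 and 2904 CPM. The log2 ratio of sarcomere to other cells was -0.61, -0.79, -1.05 and -1.44 for S genes, a wider gap at each later stage. That of the G2/M genes was -0.30, -0.25, -0.70 and -1.63, with both early libraries close together and the late ones further down. With 1 library per stage this course has no replicate check.

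**Figure D1:**
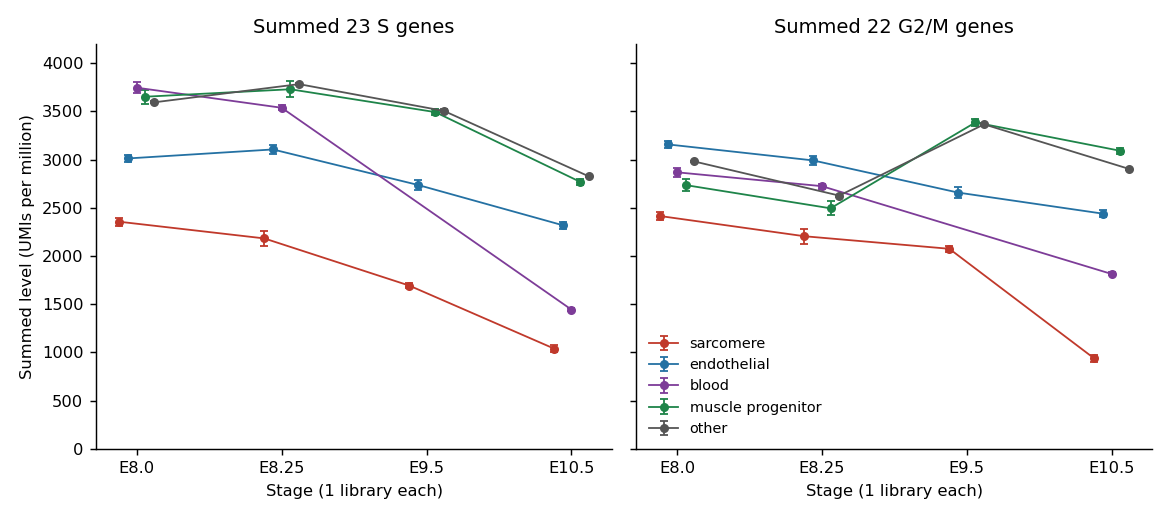
Summed level of the 23 S genes (left) and 22 G2/M genes (right) in CPM (vertical axis) at each stage (horizontal axis), with 1 point per compartment and library and bars for the 95% Poisson interval. Sarcomere cells lie lowest at every stage and reach 1039.7 (S) and 938 (G2/M) at E10.5.

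Most members were lower in sarcomere cells than in other cells of the same library. Of the 50 members, 37 were called lower and 0 higher (edgeR's quasi-likelihood test with the library as a block, Benjamini-Hochberg adjusted p under 0.05, n = 4 libraries), and 40 had an unadjusted p under 0.05. Among all 12797 genes tested, 19.5% were called lower and 19.4% higher. The median log2 fold change was -0.76 over the members and -0.03 over all genes. The 37 comprised 21 of 23 S genes, 15 of 22 G2/M genes and 1 of 5 G1 regulators, and in 30 members the 4 sarcomere values lay below the 4 values of other cells without overlap, where 14.8% of all genes tested did. No member lay above without overlap, where 9.67% of all genes did. All 9 genes of origin licensing and the helicase, all 4 nucleotide synthesis genes and 7 of 8 fork, chromatin and repair genes were called lower.

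Mcm7, a helicase subunit, stood at 114, 102, 88.9 and 46.1 CPM in sarcomere cells from E8.0 to E10.5 and at 177, 198, 186 and 155 in other cells. It was lower in 4 of 4 libraries without overlap (log2 fold change -0.96 ± 0.17 SE, edgeR adjusted p = 0.000451). Slbp, which binds the stem loop of histone messengers, was at 172, 162, 143 and 90.4 against 281, 301, 298 and 239.7 CPM (log2 fold change -0.92 ± 0.12 SE, edgeR adjusted p = 2.33e-05), again without overlap. Dut, which keeps uracil out of DNA, was at 439, 406, 228 and 181 against 646, 674, 481 and 419 (log2 fold change -0.81 ± 0.13 SE, edgeR adjusted p = 0.00021). The Dut values overlapped across stages, although each library had the lower value in sarcomere cells. Ccne1, the cyclin E1 that helps start S phase, was at 63.5, 50.7, 41.1 and 22.7 against 94.9, 84.4, 76.5 and 66.6 (log2 fold change -0.83 ± 0.19 SE, edgeR adjusted p = 0.00294).

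The 5 members with the largest falls were Cdca7, Aurkb, Kif20b, Hells and Cenpe, and each was called lower in 15 of 15 alternatives. Cdca7, a partner of the remodeller HELLS, was at 24.5, 58.7, 45.2 and 30.8 CPM in sarcomere cells and at 133, 158, 127 and 103 in other cells (log2 fold change -1.67 ± 0.17 SE, edgeR adjusted p = 1.69e-06), and was lowest at E8.0. Hells was at 89.1, 67.4, 76.4 and 38.3 against 206, 145, 178 and 114 (log2 fold change -1.19 ± 0.18 SE, edgeR adjusted p = 0.000134). Aurkb, a kinase of the chromosomal passenger complex, was at 41.6, 47.8, 27.1 and 12.96 against 79.6, 79.02, 97.7 and 73.4 (log2 fold change -1.33 ± 0.27 SE, edgeR adjusted p = 0.00113), with its widest gap at E10.5. The mitotic kinesins were Cenpe, at 45.8, 38.4, 38.9 and 18.1 against 81.6, 64.3, 97.6 and 96.1 (log2 fold change -1.16 ± 0.24 SE, edgeR adjusted p = 0.00142), and Kif20b, at 25.7, 18.8, 22.2 and 14.97 against 60.6, 36.8, 54.4 and 48.5 (log2 fold change -1.21 ± 0.17 SE, edgeR adjusted p = 4.62e-05). None of the 5 overlapped between the groups.

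Among the mitotic genes the course over stages differed from gene to gene. Cdk1 was at 191, 151, 146 and 53.8 CPM in sarcomere cells against 214, 201, 249 and 219 in other cells (log2 fold change -0.65 ± 0.24 SE, edgeR adjusted p = 0.0446), a small gap at E8.0 and a large one at E10.5. The Cdk1 call held in only 8 of 15 alternatives. Birc5 (survivin), also of the passenger complex, was at 244, 288, 223 and 102 against 395, 411, 381 and 329 (log2 fold change -0.78 ± 0.18 SE, edgeR adjusted p = 0.00366). Top2a, which untangles chromosomes, was at 199, 112, 138 and 60.8 against 243, 210.3, 301 and 271 (log2 fold change -0.94 ± 0.27 SE, edgeR adjusted p = 0.012). Neither overlapped. Ube2c was at 395, 434, 397 and 199.5 against 348, 329, 457 and 399.9 and was not called (log2 fold change -0.01 ± 0.22 SE, edgeR adjusted p = 0.979), being above other cells in both early libraries and below them in both late ones. The other G2/M members without a call were Ccnb1, Ccnb2, Cenpf, Nusap1, Hmmr and Mki67, and the S members without one were Ung and Ccne2.

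**Figure D2:**
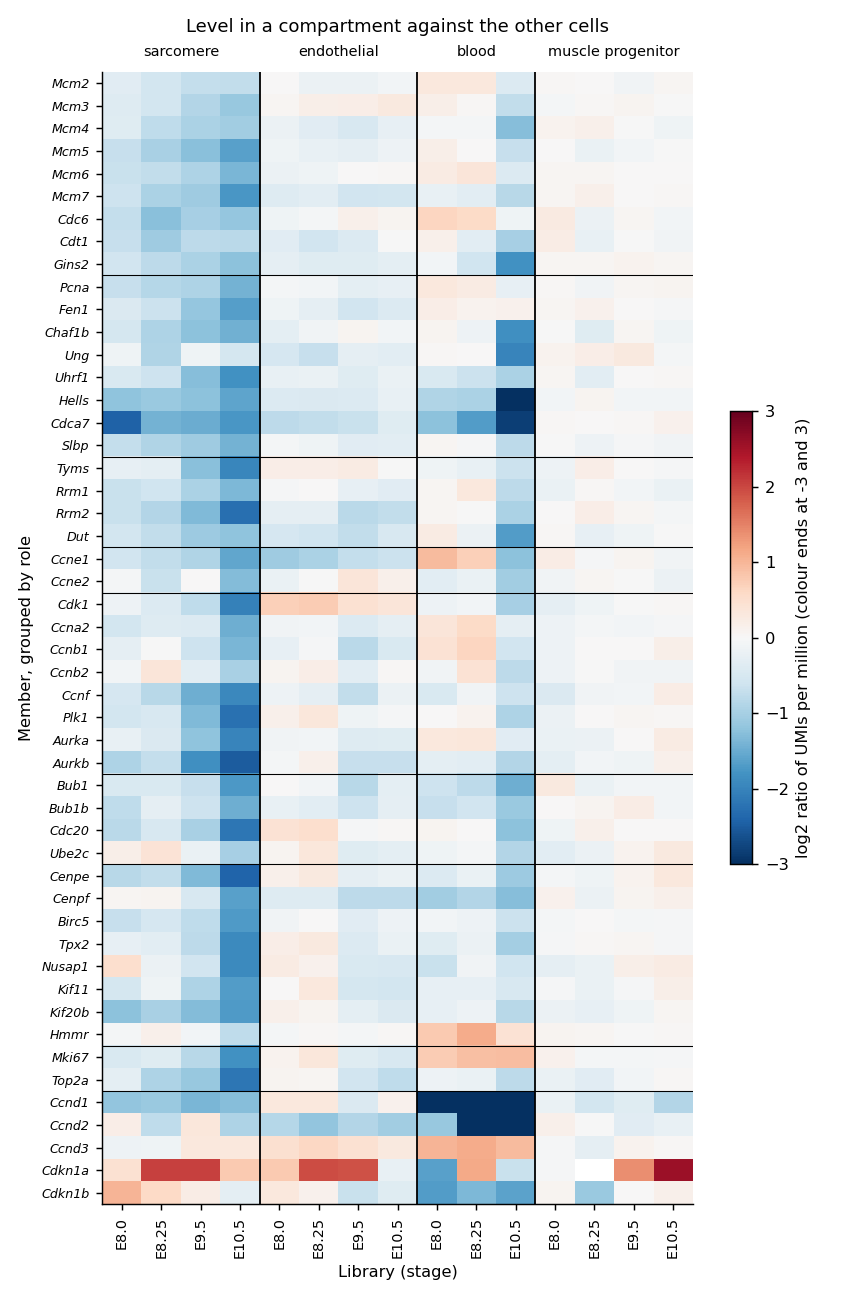
Log2 ratio of CPM in a compartment to those in other cells of the same library (colour, ends at -3 and 3), for the 50 members (vertical axis, grouped by role) and the libraries of 4 compartments (horizontal axis); blue is lower and red higher, and the blank field is Cdkn1a in muscle progenitor cells at E8.25, with 0 UMIs. In the sarcomere columns 44 to 48 of 50 members lie below other cells, and the share of all genes below them was not counted. With total UMIs as library size, the median log2 fold change was -0.88 over the members and -0.11 over all genes.

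Of the G1 regulators only Ccnd1 was called in sarcomere cells. Ccnd1 (cyclin D1) was at 65.9, 55.04, 52.3 and 55.9 CPM against 149, 118, 135 and 136 in other cells (log2 fold change -1.15 ± 0.16 SE, edgeR adjusted p = 4.52e-05), lower in 4 of 4 libraries without overlap. Ccnd2 was at 315, 167, 687 and 328 against 273, 284, 545 and 627, higher in 2 libraries and lower in 2 (log2 fold change -0.19 ± 0.29 SE, edgeR adjusted p = 0.648). Ccnd3 was at 167, 204, 207 and 253 against 187, 222, 168 and 204, likewise in both directions (log2 fold change 0.17 ± 0.16 SE, edgeR adjusted p = 0.434). Cdkn1a (p21) was at 5.23, 15.9, 24.7 and 13.8 against 3.80, 3.84, 6.01 and 8.06, with the larger value in sarcomere cells in 4 of 4 libraries but a test that missed the threshold (log2 fold change 1.41 ± 0.61 SE, edgeR adjusted p = 0.0807), and 5 of 15 alternatives called it higher. Cdkn1b (p27) was at 19.9, 10.1, 14.3 and 9.502 against 9.83, 6.73, 12.3 and 11.7 (log2 fold change 0.51 ± 0.28 SE, edgeR adjusted p = 0.174). Both inhibitors rested on few molecules, 22 to 174 UMIs of Cdkn1a and 14 to 101 of Cdkn1b per library in sarcomere cells.

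Of 62 further cycle genes, 60 were tested, and 36 were called lower and 2 higher in sarcomere cells. All 16 further replication genes, 10 of 20 further mitosis genes, 7 of 14 E2F, RB and B-MYB regulators and 3 of 10 kinases and inhibitors were lower. The same 60 genes gave 1 higher and 10 lower in endothelial cells, where 18.5% and 18.8% of all genes tested were called, and 0 and 0 in muscle progenitor cells. In blood they gave 31 higher and 5 lower with TMM scaling, edgeR's default, which sets library sizes by the bulk of the genes (32.1% and 35.7% of all genes), and 4 higher and 28 lower with total UMIs as the library size (5.3% and 64.7%), so the balance of calls turned with the scaling. The 2 genes higher in sarcomere cells were the CDK inhibitors Cdkn1c (p57) and Cdkn2d (p19). Cdkn1c was at 2319, 1407, 1591 and 1837 CPM in sarcomere cells and at 520.1, 187, 528 and 808 in other cells (log2 fold change 2.19 ± 0.49 SE, edgeR adjusted p = 0.00253). Cdkn2d was at 66.9, 68.1, 71.04 and 60.2 against 22.7, 27.2, 36.9 and 31.7 (log2 fold change 1.29 ± 0.20 SE, edgeR adjusted p = 0.000119). Neither overlapped between the groups.

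Cells were also counted one by one, as the share with 5 or more UMIs of a gene set at 5000 UMIs per cell, with exact 95% binomial intervals. For S genes the share of sarcomere cells was 88.5% (84.1 to 92.1), 90.2% (76.9 to 97.3), 62.8% (57.95 to 67.5) and 35.98% (29.6 to 42.8). In other cells it was 99.6%, 99.8%, 98.04% and 93.7%. For G2/M genes the share was 68.9% (63.00 to 74.4), 70.7% (54.5 to 83.9), 52.6% (47.6 to 57.5) and 22.4% (17.03 to 28.6) in sarcomere cells and 96.2%, 92.98%, 84.1% and 69.4% in other cells. The mean difference of sarcomere minus other cells was -28.4 ± 22.8 percentage points for S genes and -32.02 ± 10.7 for G2/M genes (SD, n = 4 libraries), and the share was lower in 4 of 4 libraries for both. Without thinning the mean differences were -6.56 and -18.3 percentage points. From 11.5% to 20.1% of sarcomere cells stood at 4 or 5 S UMIs, next to the boundary.

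Cells with fewer than 5 UMIs of each set made up 3.33%, 4.88%, 25.4% and 53.3% of sarcomere cells at the 4 stages and 0.0324%, 0.0867%, 0.666% and 3.30% of other cells. At E10.5 the shares with their intervals were 53.3% (46.3 to 60.1) and 3.30% (2.82 to 3.83). Cells with 5 or more of both made up 60.7%, 65.9%, 40.8% and 11.7% of sarcomere cells and 95.8%, 92.8%, 82.8% and 66.4% of other cells. Depth moved with these classes: at E10.5 the median UMIs before thinning were 23125 in sarcomere cells with 5 or more of both and 13709.5 in those with fewer than 5 of each, and 15706 and 10598 in other cells. No phase was assigned to single cells.

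**Figure D3:**
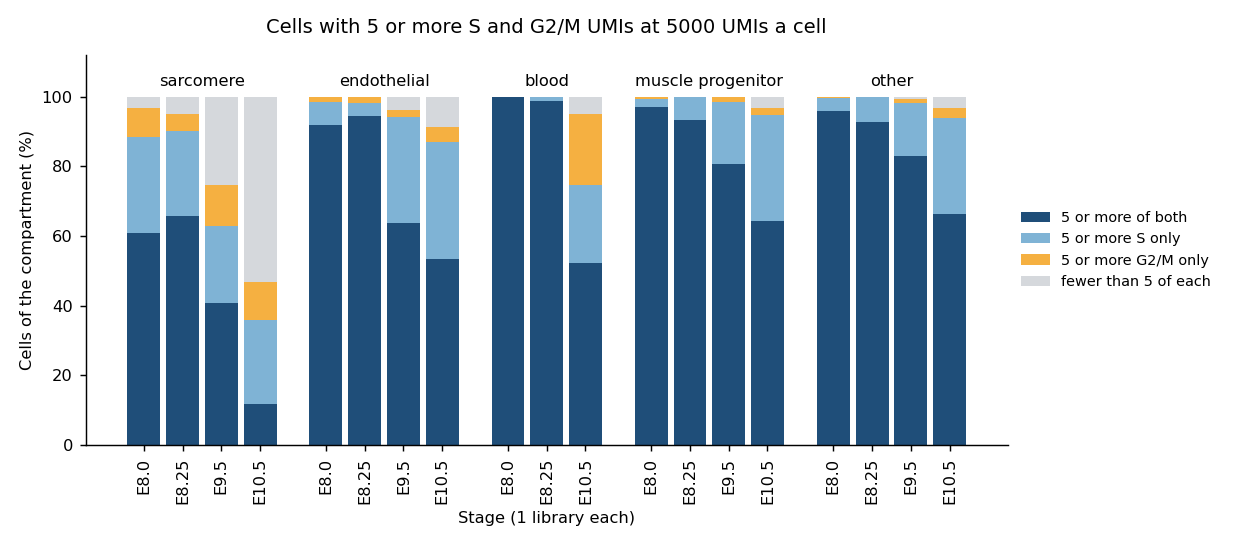
Percent of cells (vertical axis) with 5 or more UMIs of both S and G2/M genes, of one set only or of neither, after thinning to 5000 UMIs, by compartment and stage (horizontal axis, 1 library per bar, blood at E9.5 left out). Cells with fewer than 5 of each (grey) reach 53.3% in sarcomere cells at E10.5, against 3.30% in other cells.

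Droplets can also hold free RNA from broken cells. In endothelial cells, which should make no haemoglobin, the 7 globin genes stood at 7.26%, 14.8%, 38.5% and 4.87% of the level of the whole library at the 4 stages, and the 9 sarcomere genes at 13.2%, 19.9%, 5.81% and 15.9%. The globins summed to 120.0, 128, 122 and 226 CPM in sarcomere, endothelial, muscle progenitor and other cells of the E8.0 library, to 2762, 3081, 3081 and 3319.8 at E8.25 and to 5087, 5086, 4955 and 5137 at E10.5. At E9.5 they summed to 9.38, 115, 7.51 and 11.5 in the same order, so the endothelial level there was not a background shared by all compartments. No compartment is known to lack all cycle genes, so the shares could not be set against one that should be empty. The median UMIs per cell before thinning were 18842, 32595, 16602 and 14746 in sarcomere cells and 21401, 34142, 17244 and 14257 in other cells.

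Between E8.0 and E10.5 nearly all members of sarcomere cells were lower at the later stage. By a rule of at least 1.5-fold, with a 95% interval that leaves out 1 and at least 20 UMIs in the 2 sums together, 43 of 50 members were lower and 2 higher at E10.5, where 12.3% and 23.0% of all genes counted were. The log2 ratio of the latest to the earliest library was -1.18 (-1.23 to -1.13) for the summed S genes and -1.37 (-1.42 to -1.31) for the G2/M genes, against a median of 0.09 over all genes. The lowest ratios were those of Aurka (a spindle kinase) at -2.20, Ccne2 (cyclin E2) at -2.08, and Rrm2 (a subunit of ribonucleotide reductase) and Nusap1 (a spindle protein) at -1.91 each. The 2 higher members were Ccnd3 at 0.59 and Cdkn1a at 1.40, and the 5 that met neither rule were Rrm1, Cdca7, Ccnb2, Ccnd1 and Ccnd2. Ccnd3 lay just past the 1.5-fold limit and fell inside it in 6 of 7 alternatives, at log2 ratios of 0.48 (TMM-scaled library sizes) to 0.57, while Cdkn1a was past it in 7 of 7, at 0.86 to 1.62. These values compare 2 libraries, not repeated samples of a stage.

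In endothelial cells few members differed from other cells, and in both directions. Of the 50 members, 2 were called higher and 4 lower (edgeR, n = 4 libraries), where 18.5% and 18.8% of all genes tested were called. The median log2 fold change was -0.07 over the members and -0.04 over all genes. Leaving out 1 library moved these counts: without E8.0 there were 1 higher and 4 lower, without E8.25 0 and 2, without E9.5 0 and 1, and without E10.5 4 and 11. Among all genes tested, 2156 were higher and 2027 lower of 13429 without E8.0, and 1893 and 1766 of 13112 without E8.25. Without E9.5 they were 1641 and 1403 of 12467, and without E10.5 2270 and 2135 of 12417. Cdk1 was at 349, 338, 343 and 280.5 CPM in endothelial cells against 214, 201, 249 and 219 in other cells (log2 fold change 0.65 ± 0.23 SE, edgeR adjusted p = 0.0389), higher in 4 of 4 libraries without overlap. That call held in 9 of 15 alternatives, with adjusted p from 0.000848 to 0.189, and the cyclins that bind CDK1 (Ccna2, Ccnb1 and Ccnb2) were not called.

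The D-type cyclins differed from each other in endothelium. Ccnd3 was at 261, 342, 230.2 and 249 CPM against 187, 222, 168 and 204 in other cells (log2 fold change 0.56 ± 0.16 SE, edgeR adjusted p = 0.0126), higher in 4 of 4 libraries. Ccnd2 was at 150.2, 126, 295 and 306 against 273, 284, 545 and 627 (log2 fold change -0.92 ± 0.29 SE, edgeR adjusted p = 0.0202), lower in 4 of 4 libraries although the values overlap across stages. Ccnd1 was at 187, 149, 100 and 148 against 149, 118, 135 and 136 and was not called (log2 fold change 0.19 ± 0.15 SE, edgeR adjusted p = 0.338). The inhibitors were not called either, with Cdkn1a at 6.50, 14.8, 22.4 and 6.92 against 3.80, 3.84, 6.01 and 8.06 (log2 fold change 1.25 ± 0.59 SE, edgeR adjusted p = 0.11). Cdkn1b was at 12.3, 7.41, 7.76 and 9.08 against 9.83, 6.73, 12.3 and 11.7 (log2 fold change -0.03 ± 0.28 SE, edgeR adjusted p = 0.95), within the same range.

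The 3 S genes called lower in endothelium were Ccne1, Cdca7 and Dut, each lower in 4 of 4 libraries. Ccne1 was at 45.3, 43.4, 46.8 and 42.5 CPM against 94.9, 84.4, 76.5 and 66.6 (log2 fold change -0.74 ± 0.19 SE, edgeR adjusted p = 0.00525), nearly level over the 4 endothelial libraries. Cdca7 was at 77.3, 94.5, 79.6 and 80.7 against 133, 158, 127 and 103 (log2 fold change -0.54 ± 0.16 SE, edgeR adjusted p = 0.0118). Dut was at 458, 448, 287 and 298 against 646, 674, 481 and 419 (log2 fold change -0.49 ± 0.13 SE, edgeR adjusted p = 0.00739). None of the 9 licensing and helicase genes was called.

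The summed S genes of endothelial cells stood at 3013, 3106, 2738 and 2319.6 CPM, with log2 ratios to other cells of -0.25, -0.28, -0.36 and -0.29, a similar gap at each stage. Their G2/M genes stood at 3158, 2992, 2658 and 2439.5, with log2 ratios of 0.08, 0.19, -0.34 and -0.25, above other cells in the early libraries and below them in the late ones. The share of endothelial cells with 5 or more G2/M UMIs was 93.4%, 96.3%, 65.7% and 57.6% and that with 5 or more S UMIs 98.5%, 98.1%, 94.1% and 86.98%. By the 1.5-fold rule 10 members were lower in the latest than in the earliest library and 1 higher (Ccnd2, log2 ratio 1.02), where 10.7% and 20.9% of all genes counted were. With sums of cells thinned to 5000 UMIs, 18 members were lower and 1 higher, where 10.0% and 15.4% of all genes counted were.

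In blood the largest called changes in each direction were those of D-type cyclins, Ccnd3 upward and Ccnd1 and Ccnd2 downward. Ccnd1 was at 8.36, 9.53 and 4.50 CPM at E8.0, E8.25 and E10.5, against 149, 118 and 136 in other cells (log2 fold change -3.26 ± 0.19 SE, edgeR adjusted p = 3.03e-09, n = 3 libraries). At 5000 UMIs, 2.07%, 3.16% and 1.76% of blood cells held a Ccnd1 UMI, against 46.7%, 41.1% and 42.5% of other cells, with median UMIs before thinning of 34585, 52435 and 28150 and 21401, 34142 and 14257. Ccnd2 was at 124, 35.5 and 28.1 against 273, 284 and 627 (log2 fold change -1.80 ± 0.34 SE, edgeR adjusted p = 0.000239). Ccnd3 lay on the other side, at 378, 483 and 396 against 187, 222 and 204 (log2 fold change 2.05 ± 0.18 SE, edgeR adjusted p = 1.32e-07), with a UMI in 80%, 91.5% and 83.8% of blood cells and 57.8%, 64.8% and 59.4% of other cells. None of the 3 genes overlapped between the groups, and the 3 calls held in 15 of 15 alternatives. The inhibitors were not called, with Cdkn1a at 1.22, 8.42 and 5.07 CPM against 3.80, 3.84 and 8.06, and Cdkn1b, lower in 3 of 3 libraries, at 3.06, 2.65 and 3.85 against 9.83, 6.73 and 11.7 (edgeR adjusted p = 0.185 and 0.206).

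**Figure D4:**
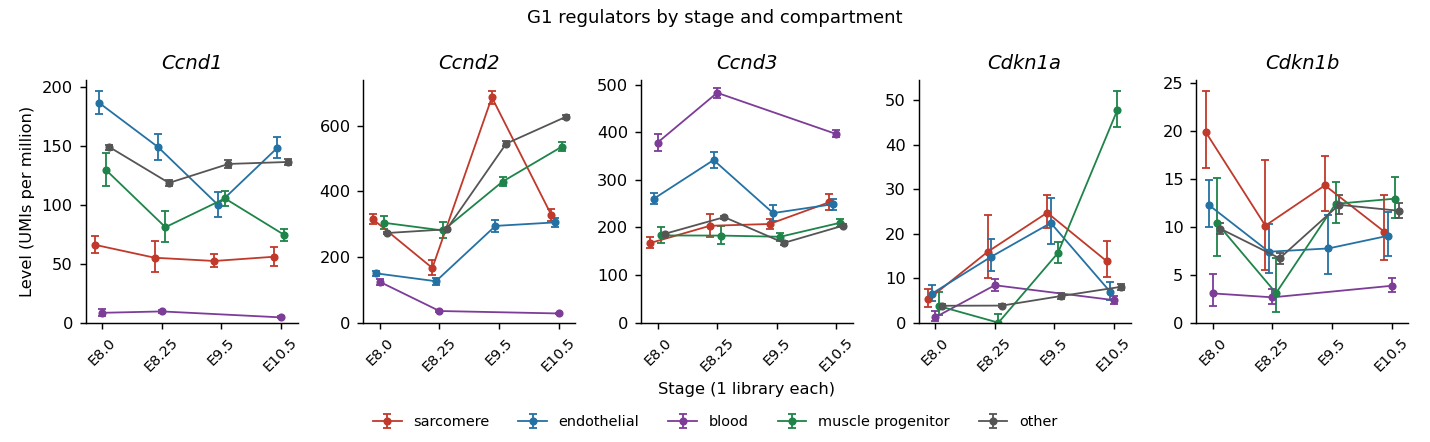
Levels of the 5 G1 regulators in CPM (vertical axes, each with its own scale) at each stage (horizontal axes), with 1 point per compartment and library and 95% Poisson intervals. Blood lies lowest for Ccnd1 and Ccnd2 and highest for Ccnd3, and Cdkn1a in muscle progenitor cells is at 47.8 at E10.5.

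For many members the direction in blood depended on the scaling. Globins took 4.81%, 11.2% and 45.9% of the UMIs of blood cells at E8.0, E8.25 and E10.5. With TMM scaling, 30 of 50 members were called higher and 4 lower, where 32.1% and 35.7% of all genes tested were called. With total UMIs as the library size, 3 were called higher and 12 lower, where 5.3% and 64.7% of all genes tested were, and the median of all genes moved from -0.07 to -1.01. The members' median lay above that of all genes by 0.66 with TMM and by 0.63 with total UMIs. Of the 30 members called higher with TMM, 18 had a negative log2 fold change with total UMIs.

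**Figure D5:**
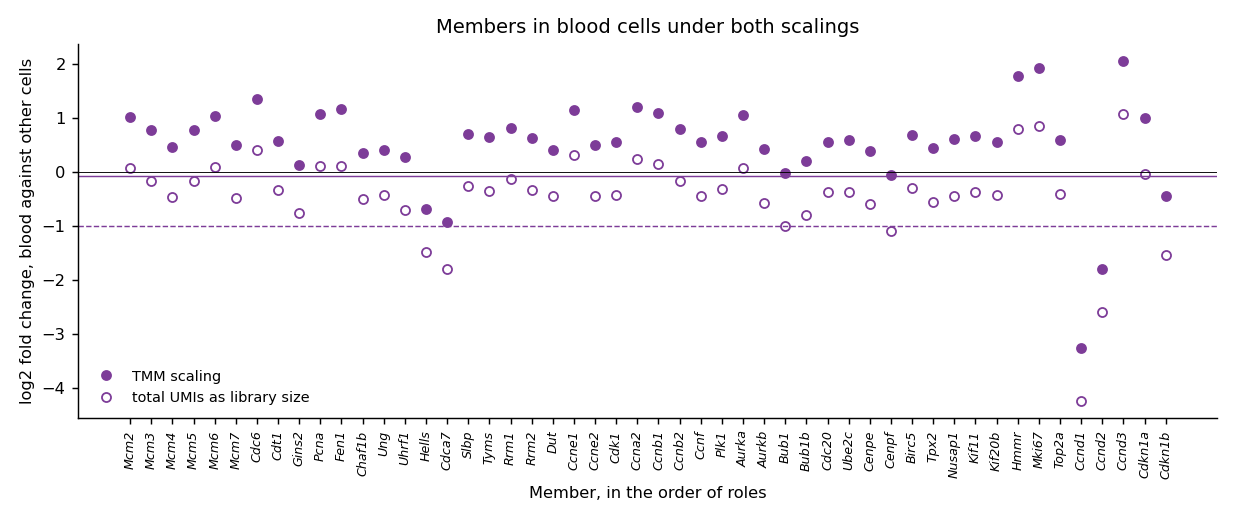
Log2 fold change of each member between blood and other cells (vertical axis) with TMM scaling (filled) and with total UMIs as library size (open), members in the order of their roles (horizontal axis); the solid and dashed purple lines are the medians of all genes tested, -0.07 and -1.01. Ccnd3, Mki67 and Hmmr are called higher, and Ccnd1, Ccnd2, Cdca7 and Hells lower, under both.

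The members called alike under both scalings were Ccnd3, Hmmr and Mki67, which were higher, and Ccnd1, Ccnd2, Cdca7 and Hells, which were lower. Mki67 was at 129, 103 and 174 CPM in blood against 76.4, 54.7 and 91.2 in other cells (log2 fold change 1.92 ± 0.31 SE, edgeR adjusted p = 5.52e-05). Hmmr, a spindle-associated protein, was at 126, 98.2 and 83.3 against 72.98, 45.7 and 61.3 (log2 fold change 1.77 ± 0.17 SE, edgeR adjusted p = 4.12e-07). Both were higher in 3 of 3 libraries without overlap. Cdca7 was at 56.1, 49.6 and 14.5 against 133, 158 and 103 (log2 fold change -0.94 ± 0.17 SE, edgeR adjusted p = 0.00022). Hells was at 109.7, 74.7 and 12.2 against 206, 145 and 114 (log2 fold change -0.68 ± 0.20 SE, edgeR adjusted p = 0.0065), so that both partners were lower in 3 of 3 libraries. The Hells call held in 14 of 15 alternatives. Cdc6 and Ccna2 (cyclin A2) were among the 5 largest with TMM (log2 fold change 1.34 and 1.20, edgeR adjusted p = 2.78e-07 and 3.96e-05), but in CPM Cdc6 was at 60.96, 56.3 and 21.02 against 38.9, 37.7 and 23.1 and Ccna2 at 178, 189.5 and 106 against 139, 127 and 128, above other cells in the early libraries and below them at E10.5.

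For that reason the ratios of the blood sums to other cells are given with total UMIs and with globin UMIs left out. Leaving out globins is not the same as TMM scaling. The log2 ratio of blood to other cells for S genes was 0.06, -0.10 and -0.97 at E8.0, E8.25 and E10.5, and 0.13, 0.07 and -0.09 when globin UMIs were left out of the totals. The same ratio for G2/M genes was -0.06, 0.05 and -0.68, and 0.02, 0.22 and 0.20 without globins. At 5000 UMIs, 74.5% of blood cells at E10.5 held 5 or more S UMIs and 72.7% held 5 or more G2/M UMIs. At 5000 UMIs of genes other than globins, an alternative chosen after seeing the data, the shares were 94.7% (93.1 to 96.02) and 92.4% (90.5 to 94.00), against 93.6% (92.9 to 94.2) and 69.3% (67.97 to 70.5) in other cells. Cells with too few such UMIs were left out, 63 blood cells (961 remained) and 3 other cells, so these shares cover the deeper cells. At E8.0 and E8.25 at least 98.7% of blood cells held 5 or more of each set on both measures.

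In CPM 35 members of blood cells were lower and 1 higher (Cdkn1a) at E10.5 than at E8.0 by the 1.5-fold rule, where 61.2% and 5.76% of all genes counted were. With TMM-scaled library sizes 9 were lower and 13 higher, where 16.4% and 24.7% of all genes counted were, and 11 were lower and 10 higher when the library size left out ribosomal protein, mitochondrial and haemoglobin genes, where 19.3% and 21.6% were. Hells at -3.17, Ung (a uracil DNA glycosylase) at -2.72, Ccne1 at -2.70 and Dut at -2.56 had the lowest log2 ratios, against a median of -0.95 over all genes. The log2 ratio of the summed S genes was -1.38 in CPM and -0.31 with TMM-scaled library sizes, and that of the G2/M genes was -0.66 and turned to 0.40.

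In muscle progenitor cells no member passed the test against other cells. This is a result about the gate, which also held markers of other cell types. Of its 6 markers, 3, 4, 5 and 6 reached 10 CPM at the 4 stages. Of the 50 members, 0 were called higher and 0 lower by edgeR (n = 4 libraries), where 0.148% and 0.102% of all genes tested were called, 2 members had an unadjusted p under 0.05, and DESeq2 also called 0. The summed S genes stood at 3653, 3730.2, 3493 and 2770.0 CPM, with log2 ratios to other cells of 0.02, -0.02, -0.01 and -0.03, and the G2/M genes at 2736, 2495, 3386 and 3092, with log2 ratios of -0.12, -0.07, 0.01 and 0.09. The share of cells with 5 or more G2/M UMIs differed from that of other cells by -0.876 ± 2.26 percentage points (SD, n = 4 libraries), less than the spread between libraries. It was 97.9%, 93.2%, 81.9% and 66.2% against 96.2%, 92.98%, 84.1% and 69.4%. These shares lay above other cells in the early libraries and below them in the late ones, the reverse of the summed ratios. Each share of other cells lay within the 95% binomial interval of the muscle progenitor share. The share with 5 or more S UMIs differed by 0.356 ± 0.551, but it was near its ceiling, at 99.3%, 100%, 98.6% and 94.7% against 99.6%, 99.8%, 98.04% and 93.7%, and could show little. At 10 or more S UMIs the shares were 91.5%, 91.5%, 83.8% and 65.6% against 92.7%, 92.98%, 85.7% and 68.3%, lower in 4 of 4 libraries, with a mean difference of -1.82 percentage points.

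Cdkn1a in these cells was at 3.73, 0, 15.7 and 47.8 CPM from E8.0 to E10.5 against 3.80, 3.84, 6.01 and 8.06 in other cells. It was level with other cells within counting error at E8.0 (10 UMIs), had 0 UMIs at E8.25 and was above other cells in both late libraries, and the test over the libraries did not call it (log2 fold change 1.45 ± 0.60 SE, edgeR adjusted p = 0.701). At 5000 UMIs, 0.709%, 0%, 5.16% and 10.4% of muscle progenitor cells held a Cdkn1a UMI, against 1.46%, 1.47%, 1.999% and 2.01% of other cells. The interval at E10.5 was 8.38 to 12.8%, and the 0 of 59 cells at E8.25 allow a share of up to 6.06%. Ccnd1 was at 129.5, 80.9, 105.3 and 74.3 CPM against 149, 118, 135 and 136, lower in 4 of 4 libraries and not called (log2 fold change -0.48 ± 0.15 SE, edgeR adjusted p = 0.342), and it was called lower when only these groups entered the fit (log2 fold change -0.50, edgeR adjusted p = 0.0319). Ccnd2 was at 305, 281, 429.8 and 537, Ccnd3 at 183, 183, 180.5 and 209.7 and Cdkn1b at 10.4, 3.09, 12.4 and 12.96, each with values on both sides of other cells.

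By the 1.5-fold rule 5 members of muscle progenitor cells were higher in the latest than in the earliest library and 9 lower, where 18.4% and 9.8% of all genes counted were. The higher ones were Cdkn1a (log2 ratio 3.68), Nusap1 (1.01), Ccnd2 (0.82), Ube2c (0.80) and Cenpe (0.60). The lowest was Cdc6 at -1.11.

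In other cells 6 members were lower and 2 higher in the latest than in the earliest library, where 11.7% and 28.7% of all genes counted were. The lower ones, Hells, Ccne2, Cdc6, Ung, Dut and Mcm3 (a helicase subunit), are all S genes, with log2 ratios from -0.85 to -0.59, and the higher ones were Ccnd2 at 1.20 and Cdkn1a at 1.09. The log2 ratio was -0.35 (-0.35 to -0.34) for the summed S genes and -0.04 (-0.05 to -0.03) for the G2/M genes. The ratio of S to G2/M UMIs was 1.21, 1.44, 1.04 and 0.973 at the 4 stages, higher in both early libraries than in both late ones. The share of other cells with 5 or more S UMIs but fewer than 5 G2/M UMIs was 3.81%, 6.94%, 15.2% and 27.3%, larger at each later stage.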

How the data were processed

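Libraries were made with the 10x 3' version 2 kit, and the submitters' processing notes name Cell Ranger 3.1.0 and mm10. The deposited values are the authors' raw UMI counts per gene and cell, not normalized, for 7581, 2956, 4055 and 8070 cells in stage order, summing to 168407965, 110213770, 74920880 and 142850521 UMIs. Whether counting used strand is not given in the sources used here. Cells with at least 1000 genes and at most 10% mitochondrial UMIs were kept, which removed 4, 2, 3 and 28 cells. The cells with the highest Scrublet scores (scanpy 1.11.5) were removed as doublets at 0.8% per 1000 cells (460, 70, 131 and 519 cells), and 23 cells at E9.5 had fewer than 5000 UMIs.

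Cells thinned to 5000 UMIs were gated as sarcomere (at least 5 of 9 markers and 25 UMIs), endothelial (4 of 10 markers), blood (100 UMIs of 7 globins and 2 of 8 erythroid markers), muscle progenitor (2 of 6 markers and not sarcomere) or leukocyte (3 of 6 markers, kept out of the comparisons). The 4 cells in more than 1 gate were left out.

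Counts were summed per library and compartment (at least 20 cells) and tested over all genes that passed edgeR's filter on low counts, with edgeR 4.0.16 (TMM, quasi-likelihood). The library was a block, since compartments of a library come from the same pooled cells. The n is the number of libraries, which are stages and not repeats of one stage. On simulated counts, 64% to 72% of changes of 1 on the log2 scale were recovered over the 4 comparisons. The changed genes had a mean count of at least 20. In each comparison 100 of 12797 genes were given a change of 1 and 100 a change of 2. False calls there made up 4.62% of calls in sarcomere cells, 4.73% in endothelial cells, 7.91% in blood and 6.59% in muscle progenitor cells. The share of false calls on the deposited counts was not tested. DESeq2 1.42.0 and the other alternatives are in the closing section. The members and lists were set by name and not by a rule on measured values, but earlier results of these data were known when they were chosen. Named with values were the 5 G1 regulators, the member of each role with the highest level and the 5 largest called changes in each direction; other genes were named after their values were seen. For promoters, 5 members had 2 promoter windows.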

Additional observations from a re-analysis of the deposited data

Results flagged for a closer look

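In 5 cases a member lay on one side of other cells in both early libraries and on the other side in both late libraries, each beyond counting error. How many of all genes cross in this way was not counted, so the cases cannot be called particular to cycle genes. The difference between early and late libraries was not tested, and stage and region cannot be told apart. Ube2c in sarcomere cells had log2 ratios to other cells of 0.18, 0.40, -0.20 and -1.003 in stage order, a difference of late minus early means of -0.89. In endothelial cells Ube2c had 0.08, 0.33, -0.36 and -0.29 (difference -0.53), Tpx2, a spindle assembly factor, 0.21, 0.29, -0.41 and -0.20 (difference -0.55), and Cenpe 0.14, 0.29, -0.28 and -0.21 (difference -0.46). In muscle progenitor cells Ube2c had -0.31, -0.18, 0.11 and 0.28, in the opposite order (difference 0.44).

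The 85 leukocyte-gated cells at E10.5, which entered no comparison, had summed S genes at 2884 and G2/M genes at 2391 CPM (UMIs per 1000000 UMIs), where other cells held 2827 and 2904.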

How the results depend on the processing

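Listed here are the values that moved by more than their interval, by more than 1 SD over libraries or, for counts, by over 1.5 times. The first are log2 ratios of the latest to the earliest library. Those of the G2/M genes of blood turned in direction with TMM-scaled library sizes and without ribosomal protein, mitochondrial and haemoglobin genes in the library size. The shares are mean differences in percentage points. In sarcomere cells the S genes stood at -1.29 with TMM-scaled library sizes, -1.39 with sums of thinned cells, -1.11 with the gate at 10000 UMIs, -1.12 with the gate on all UMIs and 1 more marker and -1.08 with doublets kept. In endothelial cells the S genes stood at -0.46 with TMM-scaled library sizes, -0.46 with sums of thinned cells and -0.41 with the gate on all UMIs and 1 more marker. In blood cells the S genes stood at -0.31 with TMM-scaled library sizes, -0.41 without ribosomal protein, mitochondrial and haemoglobin genes in the library size, -1.34 with sums of thinned cells and -1.31 with doublets kept. In muscle progenitor cells the S genes stood at -0.45 with TMM-scaled library sizes and -0.28 with the gate on all UMIs and 1 more marker. In other cells the S genes stood at -0.44 with TMM-scaled library sizes, -0.37 with sums of thinned cells, -0.31 with the gate at 10000 UMIs and -0.36 with the gate on all UMIs and 1 more marker. The G2/M genes of sarcomere cells stood at -1.48 with TMM-scaled library sizes and -1.10 with doublets kept. The G2/M genes of endothelial cells stood at -0.46 with TMM-scaled library sizes, -0.52 with sums of thinned cells, -0.42 with the gate on all UMIs and 1 more marker, -0.32 with doublets kept and -0.40 with another seed. The G2/M genes of blood cells stood at 0.40 with TMM-scaled library sizes, 0.30 without ribosomal protein, mitochondrial and haemoglobin genes in the library size, -0.72 with sums of thinned cells and -0.63 with doublets kept. The G2/M genes of muscle progenitor cells stood at 0.13 with TMM-scaled library sizes, 0.033 with sums of thinned cells and 0.24 with the gate at 10000 UMIs. The G2/M genes of other cells stood at -0.13 with TMM-scaled library sizes, -0.12 with sums of thinned cells, -0.0024 with the gate at 10000 UMIs and -0.025 with doublets kept. Members past 1.5-fold (sarcomere cells, higher) numbered 1 with TMM-scaled library sizes, 1 without ribosomal protein, mitochondrial and haemoglobin genes in the library size, 1 with sums of thinned cells, 1 with the gate on all UMIs and 1 more marker, 1 with doublets kept and 1 with another seed. Members past 1.5-fold (endothelial cells, lower) numbered 18 with sums of thinned cells. Members past 1.5-fold (blood cells, higher) numbered 13 with TMM-scaled library sizes, 10 without ribosomal protein, mitochondrial and haemoglobin genes in the library size, 0 with sums of thinned cells, 2 with the gate at 10000 UMIs, 2 with the gate on all UMIs and 1 more marker, 2 with doublets kept and 2 with another seed. Members past 1.5-fold (blood cells, lower) numbered 9 with TMM-scaled library sizes and 11 without ribosomal protein, mitochondrial and haemoglobin genes in the library size. Members past 1.5-fold (other cells, higher) numbered 1 with the gate at 10000 UMIs and 1 with the gate on all UMIs and 1 more marker. Shares for S, sarcomere minus other cells, differed by -2.19 at 1 or more UMIs. Shares for S, endothelial minus other cells, differed by -0.340 at 1 or more UMIs, -12.8 at 10 or more UMIs, -0.642 in unthinned cells and -0.299 at 10000 UMIs. Shares for S, muscle progenitor minus other cells, differed by -1.82 at 10 or more UMIs. Shares for G2/M, sarcomere minus other cells, differed by -8.51 at 1 or more UMIs and -18.3 in unthinned cells. Shares for G2/M, blood minus other cells, differed by 1.35 at 1 or more UMIs and 10.8 at 5000 UMIs of genes other than globins (chosen after seeing the data). Calls higher in sarcomere cells numbered 1 with only the 2 groups in the fit, 1 with sums of thinned cells, 1 with the gate at 10000 UMIs and 1 with another seed. Those of all genes were 2372 of 14625, 1755 of 10542, 2518 of 12725 and 2506 of 12804. Calls higher in endothelial cells numbered 1 with total counts as library size, 1 with no filter on low counts and 6 with only the 2 groups in the fit. Those of all genes were 1517 of 12797, 2303 of 21600 and 2945 of 14502. Calls lower in endothelial cells numbered 10 with only the 2 groups in the fit (2955 of 14502 genes). Calls higher in blood cells numbered 3 with total counts as library size (678 of 12797 genes). Calls lower in blood cells numbered 12 with total counts as library size (8279 of 12797 genes). Calls lower in muscle progenitor cells numbered 1 with only the 2 groups in the fit (144 of 14652 genes).

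The fit with the library as a block was compared with one without it. With no replicate block, 24 members were called lower and 0 higher in sarcomere cells, 0 lower and 0 higher in endothelial cells, 3 lower and 20 higher in blood and 0 in muscle progenitor cells. Of all 12797 genes tested there, 985 were lower and 1316 higher in sarcomere cells and 1086 and 1451 in endothelial cells. In blood they were 3466 and 3161, and in muscle progenitor cells 0 and 1. Leaving out 1 library in turn gave 28 to 36 lower and 0 to 2 higher in sarcomere cells (2 higher without E10.5), 1 to 11 lower and 0 to 4 higher in endothelial cells, 4 to 6 lower and 20 to 30 higher in blood (20 higher without E8.25) and 0 in muscle progenitor cells. Of all 12417 to 13429 genes tested, 1486 to 2185 were lower and 1675 to 2263 higher in sarcomere cells. In endothelial cells these were 1403 to 2135 and 1641 to 2270, and in blood 3797 to 4399 and 3499 to 3972. The median of all genes moved by over 0.1 in sarcomere cells, to 0.22 with DESeq2 and to -0.25 with no filter on low counts, and the members' median was -0.74 and -0.85 there. It also moved to 0.12 and -0.21 in endothelial cells. In blood it moved from -0.07 to -0.53 with no filter and -0.38 with only the 2 groups in the fit. There it was also 0.05 with DESeq2 and -1.01 with total UMIs as library size. Of the values that answer a comparison, 230 stayed within the limits given above under an alternative, 84 moved and 2 reversed. The limit of 1 SD for shares is wide. Without thinning, the S share difference to other cells went from -28.4 to -6.56 percentage points in sarcomere cells. In blood it went from -6.20 to -0.221, and both count as within the limit. Beyond the scalings and the block, the cause of these moves was not tested. Low counts limit the CDK inhibitors, and 41 sarcomere and 59 muscle progenitor cells limit E8.25.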
